A study of Mus musculus with 6 samples.

Results

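The genes described here are 10 that JAK-STAT or RAS-MAPK signalling switches on and whose products act back on that signalling: Socs1, Socs2, Socs3, Cish, Spry1, Spry2, Spred1, Dusp6, Pim1 and Pim2. They were taken by symbol from a table of 12161 mouse genes, and all 10 were present. Gene positions are RefSeq's on GRCm38.p6. The table comes from mRNA sequencing of 6 libraries of LSK cells, the Kit-positive and Sca-1-positive bone marrow cells without lineage markers among which blood stem and early progenitor cells are found. Cells of C57BL/6 mice were sorted, transduced with a retrovirus and kept 2 days with 4 cytokines. These were IL-6 and IL-3, at 10 ng/mL each, and Flt3 ligand and SCF (stem cell factor), at 50 ng/mL each. RNA was prepared from sorted GFP-positive cells. In 3 libraries the virus was MIG, a vector that marks cells with GFP, and the label gives the genotype as wild-type; in the other 3 it was MIG-Hhex, which also carries the homeobox factor Hhex, with the genotype given as Hhex. All groups share the strain, the cytokines and the transduction, the age and sex of the mice are not stated in the labels, and untransduced cells are not part of the comparison. Replicates are named WT3, WT691 and WT703 and occur once with each vector. Nothing in the labels says whether they are separate mice, so p-values measure only the spread between these libraries. Replicate WT3 was sequenced on flow cell C3RJFACXX and the others on C5LWPANXX.

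Cytokines such as IL-3 and IL-6 act through receptors that carry JAK kinases, which activate STAT transcription factors. Among the genes that STATs induce are the SOCS genes and Cish, whose proteins bind receptors or JAKs through an SH2 domain and recruit a ubiquitin ligase through the SOCS box, and the Pim kinases, which promote survival and growth. Receptor tyrosine kinases such as Kit and Flt3 signal through RAS to the kinase ERK. ERK signalling induces Sprouty proteins and the phosphatase Dusp6, which dampen it, and Spred proteins bring the RAS inhibitor neurofibromin to the membrane.

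The values are log2 expression values as deposited. On the linear scale, multiplied by transcript length in kilobases, they give sums from 1198991 to 1235877 per library, which differ little, as values scaled by transcript length and library size would, and levels of different genes are set side by side on that scale. Read counts and sequencing depth are unknown, so no counting interval is given. Library medians lay near 3.6. Hhex, the check of the labels, averaged 5.12 ± 0.07 in the MIG libraries and 8.67 ± 0.93 in the MIG-Hhex libraries (SD, n = 3 each), a log2 fold change of 3.55 (SE 0.32, limma adjusted p = 0.00189); reads from the vector and from the cells' own gene are not separated, and its pair differences were 2.43, 4.29 and 3.93 for replicates WT3, WT691 and WT703. Of the sorting markers, Kit was at 4.73 ± 0.12 with MIG and 4.56 ± 0.19 with MIG-Hhex, and Ly6a, which encodes Sca-1, at 5.17 ± 1.73 and 5.22 ± 1.45 (SD, n = 3 each). Genes of maturing cells were present beside them. On the linear scale the 15 measured of 16 neutrophil genes summed to between 7690 and 10165 with MIG and between 6630 and 10039 with MIG-Hhex, the 12 monocyte, macrophage and dendritic cell genes to 372 to 862 and 312 to 899, and 8 of 10 mast cell and basophil genes to 221 to 473 and 188 to 319. The 7 of 8 eosinophil genes summed to 5.22 to 56.8 and 49.1 to 94.1, 8 of 10 erythroid genes to 18.7 to 86.5 and 28.0 to 86.2, 7 of 8 megakaryocyte genes to 64.5 to 92.6 and 71.8 to 96.6, and 4 of 15 lymphoid genes to 78.5 to 163 and 51.8 to 131. The sums of every list overlapped between the vectors. Single genes in them passed the test both ways: in the order above, 7, 3, 1, 2, 4, 2 and 0 were higher and 2, 3, 4, 0, 1, 1 and 1 lower, against 0 and 0 of the LSK markers. Overlapping sums thus cover shifts of single genes: of all genes 18.0% passed, but 9 of 15 neutrophil genes and 5 of 8 mast cell and basophil genes did. Each of the other lists except the LSK markers also held a share of called genes above 18.0%. The median log2 fold change was −1.32 for the mast cell and basophil list, 1.81 for the eosinophil list, 0.73 for the erythroid list, 0.51 for the megakaryocyte list, 0.48 for the neutrophil list, 0.27 for the monocyte list, −0.60 for the lymphoid list and −0.19 for the LSK markers. The 7 LSK markers summed to 410 to 487 and 336 to 431. Among lineage-defining genes, Cd3e, Pax5 and Ebf1 are not among the genes measured, and Il5ra, Slc4a1 and Il7r lay below 0 on the log2 scale in all 6 libraries. The part of such cells in the results below was not tested, and in bulk RNA fewer cells of a type cannot be told apart from less RNA per cell.

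With MIG-Hhex, 3 of the 10 feedback genes were higher, Cish, Pim2 and Socs1, and 2 were lower, Spry1 and Spry2. Over all genes 18.0% passed the same test, 9.44% higher and 8.52% lower. The rises were about the same size, between 1.51-fold and 1.58-fold, and the falls were larger, 2.30-fold for Spry2 and 2.62-fold for Spry1. Socs3, Dusp6, Pim1, Socs2 and Spred1 did not pass the test (limma with a flow cell term, Benjamini-Hochberg adjusted p under 0.05). The median log2 fold change of the 10 genes was 0.04, against −0.02 over all genes. The MIG-Hhex libraries lay wholly above the MIG libraries for 1 gene, Cish (10.2% of all genes), and wholly below for 3, Spry1, Spry2 and Dusp6 (11.0% of all genes). The pair differences of 8 of the 10 had a single sign, as did those of 59.8% of all genes. Leaving out single replicates or libraries changed the counts to between 0 and 3 higher and between 1 and 3 lower; the fewest, 0 and 1, came without replicate WT691, without replicate WT703 and without the MIG-Hhex library of replicate WT691.

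**Figure D1:**
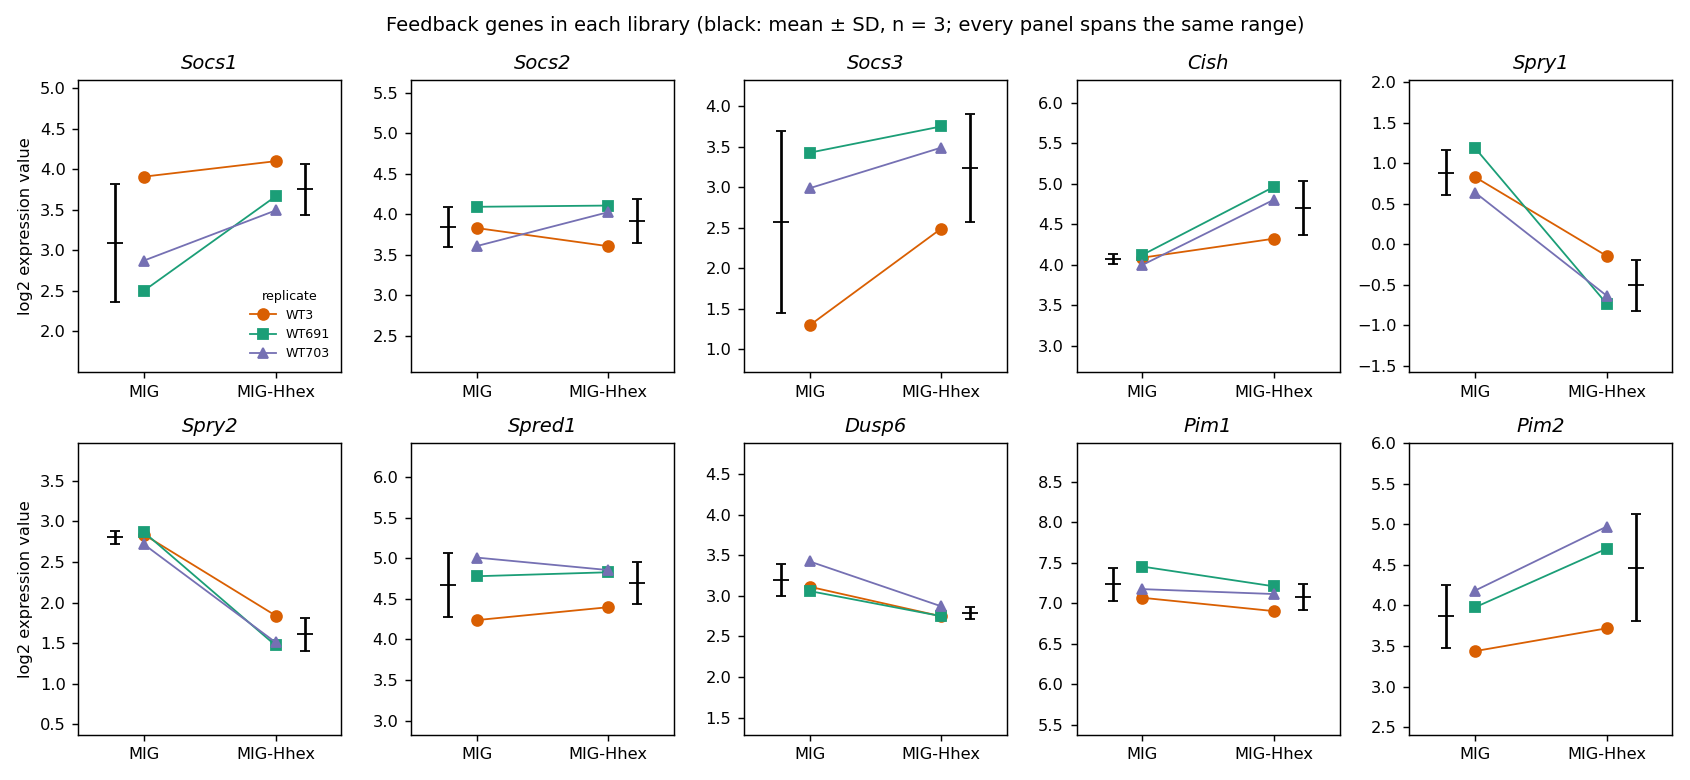
Log2 expression value (vertical axis) of each of the 10 feedback genes in the 3 MIG and 3 MIG-Hhex libraries. Coloured lines join libraries of one replicate and black bars give the mean ± SD (n = 3). Cish rose from a tight MIG group between 4.00 and 4.12, and Spry2 fell below 2 in each MIG-Hhex library.

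Cish (Entrez 12700, chr9:107296659-107302784) encodes the first described member of the SOCS family, which binds activated cytokine receptors and is a standard target of STAT5. Its log2 value was 4.09, 4.12 and 4.00 in the MIG libraries of replicates WT3, WT691 and WT703, and 4.32, 4.96 and 4.80 in the MIG-Hhex libraries. The groups did not overlap, and the MIG-Hhex library of replicate WT3 lay closest to MIG. This was a log2 fold change of 0.63 (SE 0.13, 1.54-fold, limma adjusted p = 0.0218). Within flow cell C5LWPANXX it was 0.82.

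Socs1 (Entrez 12703, chr16:10783808-10785536) encodes a direct inhibitor of JAK kinases that limits interferon signalling. With MIG it lay at 3.91, 2.50 and 2.87 in the 3 replicates and with MIG-Hhex at 4.10, 3.67 and 3.49. The MIG library of replicate WT3 was above 2 of the 3 MIG-Hhex libraries, so the groups overlapped, while each pair rose, by 0.19, 1.16 and 0.62. The fitted log2 fold change was 0.66 (SE 0.17, 1.58-fold, limma adjusted p = 0.044). It was 0.40 without replicate WT691 (limma adjusted p = 0.112), and with the trend on GC content removed it was 0.45 and not called (limma adjusted p = 0.092). The Socs1 transcript has 58.8% GC.

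Socs3 (Entrez 12702, chr11:117966079-117970336) encodes the SOCS protein that binds the IL-6 receptor subunit gp130 and the G-CSF receptor. Its values were 1.30, 3.43 and 2.99 with MIG and 2.49, 3.75 and 3.49 with MIG-Hhex. Both libraries of replicate WT3 lay below the other 4, and each pair rose, by 1.19, 0.32 and 0.50. The log2 fold change of 0.67 (SE 0.20) was the largest rise of the 10 but did not pass (limma adjusted p = 0.0628). With the replicate number as a block it did (limma adjusted p = 0.0359), and within flow cell C5LWPANXX it was 0.41 (limma adjusted p = 0.208).

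Socs2 (Entrez 216233, chr10:95383903-95417321) encodes the SOCS protein best known as a brake on growth hormone signalling. It stood at 3.83, 4.09 and 3.61 with MIG and at 3.61, 4.11 and 4.03 with MIG-Hhex. The pairs moved apart, by −0.22, 0.02 and 0.42. Its fitted log2 fold change was 0.07, with a 95% interval from −0.29 to 0.43 (limma adjusted p = 0.777), so a change of the size fitted for Cish or Socs1 lay outside the interval.

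Pim2 (Entrez 18715, chrX:7878306-7883432) and Pim1 (Entrez 18712, chr17:29490785-29496111) encode serine-threonine kinases that are active without further phosphorylation, so that their level sets their activity. Pim2 lay at 3.44, 3.98 and 4.18 with MIG and at 3.72, 4.70 and 4.97 with MIG-Hhex. Both libraries of replicate WT3 were low, and the groups overlapped because its MIG-Hhex value lay among the MIG values. The pairs rose by 0.28, 0.72 and 0.79. The log2 fold change was 0.60 (SE 0.13, 1.51-fold, limma adjusted p = 0.0253). Pim1, the most abundant of the 10, lay at 7.07, 7.45 and 7.18 with MIG and at 6.90, 7.21 and 7.12 with MIG-Hhex. All 3 pairs were slightly lower, and the log2 fold change was −0.16 (95% interval −0.35 to 0.04, limma adjusted p = 0.225). It was −0.078 without the MIG library of replicate WT691 and −0.24 without the MIG library of replicate WT703. With the GC trend removed the value of Pim1 was −0.32 and passed (limma adjusted p = 0.0304). Pim3, the remaining family member, had a log2 fold change of 0.33 (limma adjusted p = 0.0989).

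Cish, Socs1 and Pim2 each lost their call in 6 of the 9 runs that left out a replicate or a library, namely every run that removed replicate WT691, replicate WT703 or 1 library of either (limma adjusted p up to 0.122, 0.166 and 0.0997). They kept it in the 3 runs without replicate WT3 or 1 of its libraries. These 3 runs gave the same fold changes and are not separate checks. Replicate WT3 is alone on its flow cell, so with the flow cell term a single library of it adds nothing to the fold change.

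Spry2 (Entrez 24064, chr14:105891947-105896819) and Spry1 (Entrez 24063, chr3:37639947-37644599) encode Sprouty proteins, which receptor tyrosine kinase signalling induces and which in turn restrain the path from the receptor to ERK. Spry2 was at 2.84, 2.87 and 2.72 in the MIG libraries and at 1.84, 1.47 and 1.51 in the MIG-Hhex libraries. The groups did not overlap, and each pair fell, with differences of −0.998, −1.40 and −1.21. The log2 fold change was −1.20 (SE 0.11, 2.30-fold lower, limma adjusted p = 0.00212). Spry2 passed in all 9 left-out runs, with values from −1.30 to −1.10 and adjusted p up to 0.0317 (limma), and in all 10 other settings tried. Among those settings, the fit without a filter repeats the reported fit, because the filter removed no gene.

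Spry1 was the lowest of the 10 genes with either vector. It lay at 0.83, 1.19 and 0.64 with MIG and at −0.14, −0.73 and −0.63 with MIG-Hhex, again without overlap. Spry1 had a log2 fold change of −1.39 (SE 0.24, 2.62-fold lower, limma adjusted p = 0.0128). At such low values its size depends on the offset of the log scale: with 1 added on the linear scale it was −0.74 (limma adjusted p = 0.012). The call was lost without replicate WT691 (limma adjusted p = 0.054), without replicate WT703 (0.0738) and without the MIG-Hhex library of replicate WT691 (0.0531). Spry4, the other Sprouty measured, was at 0.21 ± 0.27 in MIG and −0.04 ± 0.37 in MIG-Hhex libraries (SD, n = 3) and had a log2 fold change of −0.25 (95% interval −0.83 to 0.34, limma adjusted p = 0.515).

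Spred1 (Entrez 114715, chr2:117121071-117182279) encodes a Sprouty-related inhibitor that delivers neurofibromin to RAS at the membrane. Its values were 4.24, 4.78 and 5.01 with MIG and 4.40, 4.83 and 4.86 with MIG-Hhex. Both libraries of replicate WT3 were the lowest, and the vectors did not separate. Its log2 fold change was 0.02, with a 95% interval from −0.18 to 0.22 (limma adjusted p = 0.898). This interval excludes changes of the size seen for Spry1 and Spry2. Spred2 fell by 0.42 (SE 0.10, limma adjusted p = 0.0299), though not in 6 of the 9 left-out runs, the ones that removed replicate WT691, replicate WT703 or 1 library of either (up to 0.153). Spred3, below 0 with both vectors, had a log2 fold change of 0.73 that did not pass (limma adjusted p = 0.0768).

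Dusp6 (Entrez 67603, chr10:99263231-99267489) encodes the cytoplasmic phosphatase that inactivates ERK and is a common readout of ERK activity. It was at 3.11, 3.06 and 3.43 with MIG and at 2.75, 2.75 and 2.87 with MIG-Hhex. The MIG-Hhex libraries lay below every MIG library, and the pair differences were −0.36, −0.31 and −0.55. The log2 fold change of −0.41 (SE 0.11) missed the threshold (limma adjusted p = 0.0537) and passed it with the replicate number as a block (limma adjusted p = 0.0204). Of the 8 other MAP kinase phosphatases on the list of relatives that were measured, Dusp16, which acts on JNK and p38, fell from 1.89 ± 0.41 to 0.67 ± 0.28 (SD, n = 3), a log2 fold change of −1.22 (SE 0.15, limma adjusted p = 0.00453), and passed in all 9 left-out runs. Dusp2 had a value of −0.34 (limma adjusted p = 0.0665), and Dusp1, Dusp4, Dusp5, Dusp7, Dusp9 and Dusp10 lay between −0.23 and 0.26 and did not pass. The list leaves out the smaller, atypical dual-specificity phosphatases. One of them, Dusp22, was named here after its value was seen. It went from 1.55 to −0.31, a log2 fold change of −1.86 (SE 0.15, limma adjusted p = 0.00137), larger than that of Dusp16. Left-out runs were not examined for Dusp22.

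**Figure D2:**
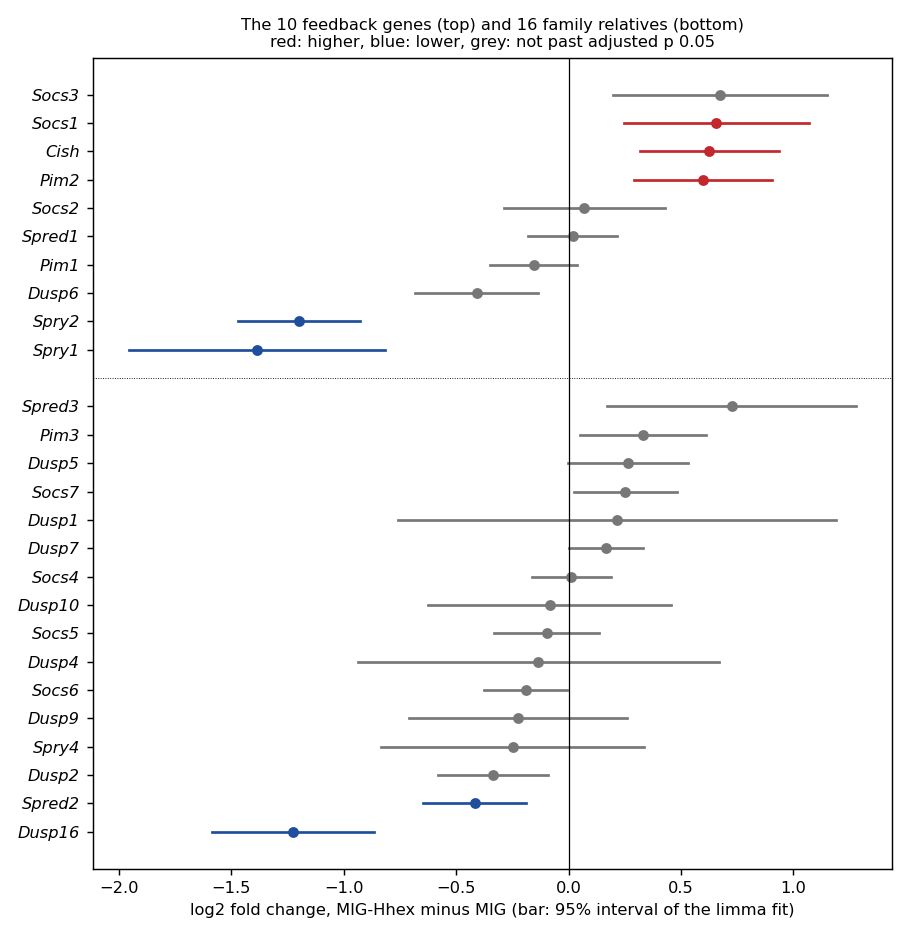
Log2 fold change, MIG-Hhex minus MIG (horizontal axis), of the 10 feedback genes above the dotted line and of 16 family relatives below it. Points are limma estimates and bars their 95% intervals. Of the relatives, Dusp16 and Spred2 were lower and none was higher at an adjusted p under 0.05. Over all genes 8.52% were lower and 9.44% higher.

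Across the family relatives, 16 of 18 were measured, of which 0 rose, 2 fell and 14 did not pass (limma). The shares over all genes were 9.44% higher and 8.52% lower. Of the relatives, 4 were higher and 4 lower at an unadjusted p under 0.05 (limma). Their median log2 fold change was −0.09. With the replicate number as a block, 1 rose and 3 fell, Pim3 and Dusp2 being added. The SOCS proteins without a call were Socs4 at 0.01, Socs5 at −0.10, Socs6 at −0.19 and Socs7 at 0.25.

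By level with MIG, the order was Pim1 at 7.23, Spred1 at 4.68, Cish at 4.07, Pim2 at 3.87, Socs2 at 3.84, Dusp6 at 3.20, Socs1 at 3.10, Spry2 at 2.81, Socs3 at 2.57 and Spry1 at 0.89. Neighbours whose library ranges overlapped were Cish with Pim2, Pim2 with Socs2, Dusp6 with Socs1, Socs1 with Spry2, and Spry2 with Socs3. With MIG-Hhex, Cish at 4.70 and Spred1 at 4.69 were level, and the ranges overlapped between all neighbours from Cish down to Dusp6 at 2.79. Spry2 at 1.61 and Spry1 at −0.50 then stood below the rest without overlap.

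**Figure D3:**
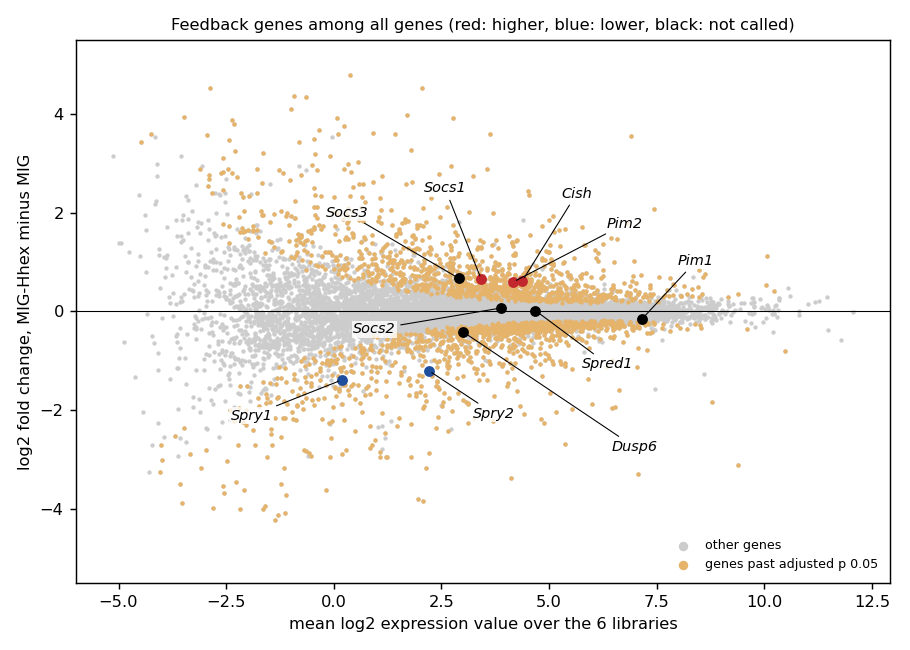
Log2 fold change (vertical axis) against mean log2 expression value over 6 libraries (horizontal axis) for all 12161 genes, with the 10 feedback genes labelled. Orange points are the 18.0% of genes past the threshold. Spry1 and Spry2 lie below −1, and Cish, Pim2, Socs1 and Socs3 lie together near 0.6 to 0.7.

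The 5 genes that passed differed least in replicate WT3, whose Hhex rise of 2.43 was also the smallest. There the pair differences of Cish, Socs1, Pim2, Spry1 and Spry2 were 0.23, 0.19, 0.28, −0.97 and −0.998. In replicates WT691 and WT703 they were 0.84 and 0.80 for Cish, 1.16 and 0.62 for Socs1, 0.72 and 0.79 for Pim2, −1.92 and −1.27 for Spry1 and −1.40 and −1.21 for Spry2. Socs3, which did not pass, had its largest difference in replicate WT3. Called genes of the pathway lists went both ways. Il6ra, Stat4, Rasgrp4 and Dok2 also differed least in replicate WT3, whereas Rasa2, Sh2b3 and Stat6 differed most there. The share of all called genes that differed least in replicate WT3 was not counted. Whether this order is particular to the 5 genes, or follows the size of the Hhex rise, was not tested. Replicate WT3 is also the only one on its flow cell, so the replicate, the flow cell and the size of the Hhex rise cannot be told apart.

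The sequences upstream of the RefSeq starts (GRCm38.p6, 250 bases, 5′ to 3′) are shown for Spry2 and Spry1, which fell together, and for Socs1, Socs3 and Dusp6, which hold motifs named for factors of these pathways or for homeodomains. Spry2 is on the minus strand at chr14:105896820-105897069, Spry1 on the plus strand at chr3:37639697-37639946, Socs1 on the minus strand at chr16:10785537-10785786, Socs3 on the minus strand at chr11:117969452-117969616 and Dusp6 on the plus strand at chr10:99262981-99263230. Socs3 is cut to its first 165 bases, which lie inside the annotated Socs3 gene because its start is an internal one. Capitals mark GGGCGG in Spry1, the interferon regulatory factor pattern (GAAA, any 2 bases, GAAA) in Socs1, TTCNNNGAA in Socs3 and TAAT in Dusp6, on either strand.
Spry2: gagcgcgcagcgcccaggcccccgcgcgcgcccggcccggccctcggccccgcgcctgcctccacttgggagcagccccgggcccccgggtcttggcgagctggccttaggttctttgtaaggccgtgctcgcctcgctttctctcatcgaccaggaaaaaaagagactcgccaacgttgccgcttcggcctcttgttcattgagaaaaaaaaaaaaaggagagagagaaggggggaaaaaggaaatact
Spry1: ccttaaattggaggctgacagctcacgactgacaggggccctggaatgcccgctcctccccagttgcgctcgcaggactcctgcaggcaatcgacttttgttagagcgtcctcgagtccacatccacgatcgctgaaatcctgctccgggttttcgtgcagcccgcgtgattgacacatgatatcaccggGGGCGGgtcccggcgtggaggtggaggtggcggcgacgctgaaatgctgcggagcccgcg
Socs1: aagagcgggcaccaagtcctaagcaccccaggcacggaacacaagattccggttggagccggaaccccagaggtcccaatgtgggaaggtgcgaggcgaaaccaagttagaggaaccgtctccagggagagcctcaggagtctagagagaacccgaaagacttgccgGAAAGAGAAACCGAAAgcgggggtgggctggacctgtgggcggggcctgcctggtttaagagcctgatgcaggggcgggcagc
Socs3: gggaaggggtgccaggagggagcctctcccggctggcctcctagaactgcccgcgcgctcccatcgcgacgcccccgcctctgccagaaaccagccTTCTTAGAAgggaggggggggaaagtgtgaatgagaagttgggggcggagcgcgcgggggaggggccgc
Dusp6: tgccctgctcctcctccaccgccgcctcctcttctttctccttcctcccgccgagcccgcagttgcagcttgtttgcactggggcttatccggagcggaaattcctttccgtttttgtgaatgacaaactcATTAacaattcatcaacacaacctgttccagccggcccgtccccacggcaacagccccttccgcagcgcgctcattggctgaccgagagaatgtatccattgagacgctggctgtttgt

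In all, 13 motifs were searched on both strands of the 250 bases upstream of 32851 starts, and 9 of the 10 feedback genes had an entry, with 10 starts. TTCNNNGAA, the spacing STAT dimers prefer, was in 7.02% of all windows and in Socs3 alone of the 9 genes, as TTCTTAGAA starting at position −154 from the start. The pattern of interferon regulatory factors, GAAA and GAAA with any 2 bases between, was in 2.98% of all windows and in Socs1 alone, in overlapping copies at positions −83 and −77. The homeodomain core TAAT was in 54.9% of all windows and in 2 of the 9 genes, Dusp6 and Pim1, and ATTAA, which overlaps it, in 24.9% and the same 2. GGGCGG, the GC box, was in 32.7% of all windows and in 7 of the 9, Spry2 and Dusp6 being without it. CCAAT was in 33.8% and in 5 genes, CATTCC in 12.6% and in Cish and Spry1, CCGGAA, an ETS core, in 12.0% and in Socs1, and CACGTG in 6.02% and in Pim1. TTC and GAA with any 4 bases between (5.85% of all windows), CCGGAAGT (2.88%), TATAAA (12.4%) and TGACGTCA (1.55%) were in none of the 9. These matches describe letters in the window only.

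The counts of the pathway lists stand beside 9.44% higher and 8.52% lower over all genes. Among cytokine receptors, 3 of 20 rose and 1 fell, and the median log2 fold change was 0.04. With the replicate block 5 rose and 3 fell. Il6ra, the IL-6 binding chain, rose by 0.96 (SE 0.14, limma adjusted p = 0.00814). Csf2rb, the signalling chain shared by IL-3, IL-5 and GM-CSF receptors, rose by 0.62, and its mouse copy Csf2rb2, the IL-3 specific chain, by 1.23; the genes are near-identical and reads may be split between them, so the values are uncertain. Ifngr2, a chain of the interferon gamma receptor, fell by 0.41. Csf2rb lost its call in 4 of the 9 left-out runs and Ifngr2 in 7. The 11 JAK and STAT genes had a median of 0.09; 3 rose and 2 fell. Stat4 fell by 0.94 (SE 0.11, limma adjusted p = 0.00431), while the kinase Tyk2 rose by 0.47, Stat6 by 0.30 and Stat3 by 0.21. These rises were lost in 6, 7 and 9 of the 9 left-out runs, and none of them passed with the GC trend removed, which left 1 gene of the list higher and 3 lower.

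Of 12 other JAK-STAT inhibitors measured, 2 rose and 1 fell, with a median of 0.20. Sh2b3, the adaptor LNK that restrains JAK2, rose by 0.45, Ptpn6, the phosphatase SHP-1, by 0.35, and Ptprc, the phosphatase CD45, fell by 0.39. They lost their calls in 5, 3 and 6 of the 9 left-out runs and all with the GC trend removed, where 1 gene of the list was higher and 0 lower; with the replicate block 3 were higher and 2 lower. Ptpn2, another JAK phosphatase, had a value of −0.23 and did not pass. Among 15 other STAT targets, 4 rose and 2 fell, with a median of 0.17. Bcl3, an atypical IκB protein, rose by 0.57, cyclin Ccnd2 by 0.35 and cyclin Ccnd3 by 0.23, whereas Cebpd, a C/EBP factor, fell by 0.85. Bcl3, Ccnd2, Ccnd3 and Cebpd lost their calls in 5, 2, 8 and 1 of the 9 left-out runs, and Bcl3 and Ccnd3 also with the GC trend removed, where 2 genes of the list were higher and 3 lower. Of 6 measured partners of the SOCS box, elongins, cullins and ring proteins, 0 rose and 0 fell (limma; 0 at an unadjusted p under 0.05), and their fold changes lay between −0.09 and 0.02.

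On the RAS side, 2 of 22 genes of the cascade from Grb2 to ERK rose and 1 fell, with a median of 0.06. Rasgrp4, a RAS activator of myeloid cells, rose by 1.74 (SE 0.19, 3.34-fold, limma adjusted p = 0.00329) and Ksr1, a scaffold of the cascade, by 0.91, while the adaptor Gab2 fell by 0.40, a call lost in all 9 left-out runs. With the GC trend removed 2 genes of the cascade rose and 2 fell. Rasgrp1 had a value of −1.73 from a MIG mean of −2.41 and did not pass (limma adjusted p = 0.0503). Of 12 other RAS-MAPK inhibitors, 2 rose and 1 fell, with a median of 0.08. Dok2, an adaptor that recruits RasGAP, rose by 1.21 (SE 0.09, limma adjusted p = 0.00118). Nf1, neurofibromin, rose by 0.42, a call lost in all 9 left-out runs. Rasa2, a RasGAP, fell by 1.06 (SE 0.08, limma adjusted p = 0.00121).

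Of 16 measured other genes that ERK induces, 5 rose and 0 fell (limma), with a median of 0.31. Over all genes 9.44% rose and 8.52% fell. At an unadjusted p under 0.05 (limma), 7 of the 16 were higher and 1 lower. Trib1, a pseudokinase that targets C/EBP alpha, rose by 1.09, Plaur, the urokinase receptor, by 0.75, Il1rl1, the IL-33 receptor, by 0.71, and Etv5, an ETS factor, by 0.56. Trib1 lost its call in 5 of the 9 left-out runs and the others in 1. With the GC trend removed 4 genes of the list were higher and 2 lower, and with the replicate block 8 and 0. Of 10 effectors of Pim and SOCS proteins, 2 rose and 1 fell, with a median of 0.05. The cell cycle inhibitor Cdkn1a rose by 0.68 and Nfatc1 by 0.42, and the phosphatase Cdc25a fell by 0.20. They lost their calls in 2, 8 and 9 of the 9 left-out runs, and Nfatc1 and Cdc25a also with the GC trend removed. The left-out runs were followed for 31 called genes outside the 10, from the pathway and family lists and with Hhex. Dusp22 was not among them. Of the 31, 22 lost their call in at least 1 of the 9 left-out runs. The 9 that kept it were Hhex, Dusp16, Il6ra, Csf2rb2, Stat4, Ksr1, Rasgrp4, Dok2 and Rasa2. Without the flow cell term 27 of the 31 lost it, and the 4 that passed were Hhex, Stat4, Rasgrp4 and Dok2.

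By the fixed rule, the genes most like each called gene over the 6 libraries by Pearson's r were Anpep and Tmem63b for Cish (0.997 and 0.996), Emp3 (0.997) and Hacl1 (0.995) for Socs1, Mllt6 (0.998) and Tns1 (0.994) for Pim2, Pkib (0.997) and Ube2j1 (0.993) for Spry1, and Gramd3 (0.998) and Fbxl2 (0.997) for Spry2. With 6 points that share flow cells and vectors, between 112 and 206 genes had an r above 0.95 with each, so these are names by rank only.

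**Figure D4:**
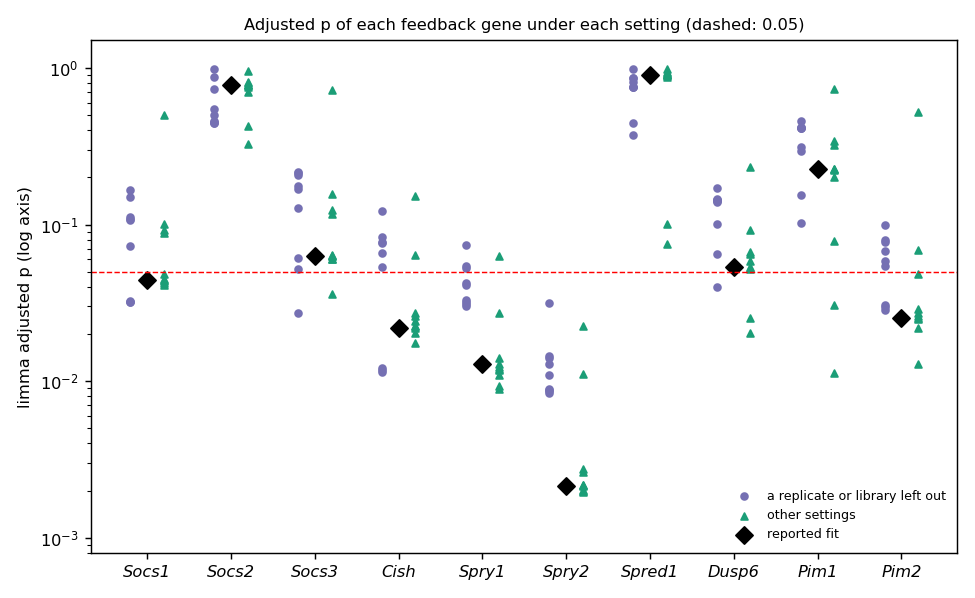
Limma adjusted p (vertical axis, log scale) of each of the 10 feedback genes in the reported fit (diamonds), in 9 runs that left out a replicate or a library (circles) and in 10 other settings (triangles). The dashed line is 0.05. Spry2 lies below it throughout, and Cish, Socs1 and Pim2 fall on both sides. The runs without replicate WT3 or either of its libraries share the same fold changes. The setting without a filter repeats the reported fit.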

How the data were processed

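Messenger RNA of 6 libraries was analysed, 3 per vector, grouped by the vector label. The deposited table holds log2 values, 1 row per Entrez gene and 1 column per library. The submitters' processing notes name mm10 and the tools featureCounts, Subread, edgeR and limma; no source here gives versions, order or normalization. No per-sample column was left unused, and 60 rows have no symbol. Whether the normalization removed a shift shared by all genes cannot be told.

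All genes were fitted with limma 3.58.1 in R 4.3.3, with terms for flow cell and vector and a trended eBayes. Tests were two-sided, with adjustment over all genes. A filter (above the library minimum in 3 libraries) removed 0 genes, so the setting without it repeats the reported fit. A positive log2 fold change means higher with MIG-Hhex. The fit was run on a simulation. Its noise was lower than that of variable genes such as Socs1 and Socs3, so it cannot give error rates for these libraries. Coordinates and promoters are from RefSeq, GRCm38.p6, the build of mm10; 12052 rows matched by Entrez ID.

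Members, gene lists and tests were chosen with earlier results of these data known. Named were all 10 members, any family relative, up to 4 genes per other list by smallest p, and the 2 genes most alike each called member. Dusp22 was added outside this rule, after its value was seen. Deviations from the group means correlated between same-numbered libraries (0.742, 0.585 and 0.656 for replicates WT3, WT691 and WT703). The flow cell was not removed and differently numbered libraries were not compared, so these values cannot decide whether the numbers pair libraries. Pair differences rest on the shared replicate number alone. Alternatives covered the flow cell term, the replicate block, GC content (11740 genes with a value), filters, scaling, the trend, an added offset and left-out libraries. The runs without replicate WT3 or either of its libraries gave the same fold changes, so they are not separate checks.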

Additional observations from a re-analysis of the deposited data

How the results depend on the processing

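Without the flow cell term the counts fell to 0 members higher and 1 lower (limma; 1 and 3 at an unadjusted p under 0.05), and to 119 and 98 over all genes, against 1148 and 1036 as reported. Without the mean-variance trend 0 members were higher (4 at an unadjusted p under 0.05), and 638 of all genes were lower. With the replicate block 4 members were higher and 3 lower, Socs3 and Dusp6 added; the block changed no other member's call. With the block and the GC trend removed, 4 members and 1653 of all genes were lower. Left-out runs gave 0 to 3 members higher and 1 to 3 lower, and 355 to 835 and 270 to 634 over all genes. Signs reversed in left-out runs only for small values without a call: Socs2 (−0.11 to 0.22), Spred1 (−0.053 to 0.10), Dusp1 (−0.19 to 0.63), Dusp4 (−0.43 to 0.24), Dusp10 (−0.17 to 0.040), Socs4 (−0.052 to 0.058) and Ly6a (−0.12 to 0.18). With the GC trend removed, with or without the block, Dusp7 was −0.031 and Socs6 0.0044. Fold changes correlated with transcript GC content across genes (Spearman rho 0.306; genes are not independent replicates). Why the results differed between settings was not tested, also for the runs with fewer libraries. With 3 residual degrees of freedom and unknown depth, low genes such as Spry1 are the least certain in size.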
